A study of Mus musculus with 21 samples.

Results

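Metoprolol and propranolol are both β-blockers, drugs that occupy β-adrenergic receptors and keep catecholamines from activating them. Metoprolol is selective for the β1 receptor and propranolol is not. The heart apex of mice given metoprolol was compared here with that of mice given propranolol, using 3 libraries of each, 6 of the 21 libraries of the study. Members were the genes with at least 1 FPKM (fragments scaled to transcript length and mapped total) in at least 3 of these 6 libraries, which left 11989 of 18762 deposited genes. All mice were of the outbred ICR strain, had the ventricular tip cut away (apical resection) at 1 day of age, and were sampled at postnatal day 7. The 3 groups used below were metoprolol after resection, propranolol after resection, and resected controls. The drugs were given subcutaneously over a course that the labels put at 7 days. For the controls 7 days of injection are listed as well, and what was injected is not stated. The other drug groups of the study received isoproterenol, amiodarone, lidocaine or ivabradine. No dose is in the labels, so whether the doses of the β-blockers matched is not known. The labels give no sex. Nor do they tie libraries to animals, and the p-values below measure only the spread between libraries, which may be technical.

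Both drugs are aryloxypropanolamines and share the isopropylamino side chain. They differ in the ring: metoprolol carries a phenyl ring with a methoxyethyl group opposite the side chain, and propranolol carries a naphthalene ring. In heart muscle a catecholamine bound to a β receptor activates the stimulatory G protein, whose target adenylyl cyclase makes cyclic AMP (cAMP). Cyclic AMP activates protein kinase A (PKA), which phosphorylates calcium channels, phospholamban and the ryanodine receptor, and also the transcription factor CREB. Phosphodiesterases degrade cAMP, RGS proteins shorten G protein signals, and receptor kinases with arrestins shut the receptor off. CREB raises a set of genes that are switched on quickly, among them the Nr4a nuclear receptors, Fos, Sik1, Irs2, Crem and Per1. Each group of this pathway is taken in turn below.

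CREB binds the cAMP response element, TGACGTCA, or its short core, TGACG, which reads CGTCA on the other strand. The promoters of 5 CREB targets are printed because these genes have the largest differences of that list (Nr4a1, Fos, Irs2, Nr4a3) or passed the test (Dusp1). Irs2 is shown although it holds no core. Each run holds the 250 bases before the start of the gene in RefSeq on GRCm38.p6, read 5′ to 3′ on the strand of the gene. Capitals mark each core, and in Dusp1 the longer run of capitals is the whole element. The deposited values were made on mm9, and these windows were used for sequence only.
Nr4a1, chr15:101266596-101266845, plus strand: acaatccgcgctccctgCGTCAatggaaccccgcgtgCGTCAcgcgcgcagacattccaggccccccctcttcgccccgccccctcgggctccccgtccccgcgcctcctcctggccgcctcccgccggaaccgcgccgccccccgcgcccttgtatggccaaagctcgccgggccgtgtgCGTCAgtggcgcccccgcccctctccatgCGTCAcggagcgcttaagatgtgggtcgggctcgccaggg
Dusp1, chr17:26508473-26508722, minus strand: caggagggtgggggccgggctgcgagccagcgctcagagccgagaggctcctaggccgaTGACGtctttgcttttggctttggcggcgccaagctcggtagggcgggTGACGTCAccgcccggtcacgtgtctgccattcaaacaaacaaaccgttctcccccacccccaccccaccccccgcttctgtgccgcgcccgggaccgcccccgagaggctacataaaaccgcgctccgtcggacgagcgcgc
Fos, chr12:85473640-85473889, plus strand: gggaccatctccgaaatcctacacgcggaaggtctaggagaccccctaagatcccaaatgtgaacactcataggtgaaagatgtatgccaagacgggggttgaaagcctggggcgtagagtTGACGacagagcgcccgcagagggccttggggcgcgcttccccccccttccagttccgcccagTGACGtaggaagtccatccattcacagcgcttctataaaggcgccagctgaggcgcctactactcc
Irs2, chr8:11008930-11009179, minus strand: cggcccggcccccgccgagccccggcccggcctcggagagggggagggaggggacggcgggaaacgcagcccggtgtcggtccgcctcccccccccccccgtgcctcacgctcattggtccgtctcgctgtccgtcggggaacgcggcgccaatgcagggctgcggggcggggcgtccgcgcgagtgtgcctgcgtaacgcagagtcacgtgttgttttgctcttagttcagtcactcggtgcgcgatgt
Nr4a3, chr4:48045055-48045304, plus strand: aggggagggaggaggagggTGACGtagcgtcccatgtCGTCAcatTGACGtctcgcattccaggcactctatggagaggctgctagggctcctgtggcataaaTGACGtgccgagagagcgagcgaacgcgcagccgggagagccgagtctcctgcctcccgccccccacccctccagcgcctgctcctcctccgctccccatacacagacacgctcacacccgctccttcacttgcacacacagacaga

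Nr4a1 held 4 cores, at 233, 213, 69 and 40 bases before its start, and Fos held 2, at 129 and 66 bases. Nr4a3 held 4 cores, at 231, 213, 205 and 147 bases. The whole element of Dusp1 began 143 bases before the start, with a further core at 191 bases. Over windows that also take in the first 50 bases of the gene, 12 of the 15 tested CREB targets had an entry, and 10 of them (83.3%) held the core in at least 1 window. Of all tested genes 9563 had an entry, and 35.7% of these held the core. The whole element was in 1 of the 12 (8.33%) and in 3.45% of the 9563. Irs2 and Pde4d had no core, and Pde4b had it in 1 of its 4 windows. The CREB list was written from knowledge of such promoters, so these shares describe the list and test nothing.

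All 6 libraries were similar in the quantities the files show. Their FPKM summed to between 499540 and 532386, and 16348 to 16521 genes were above 0. Log values correlated across genes at 0.991 to 0.995 within metoprolol, 0.994 to 0.996 within propranolol, and 0.991 to 0.994 between the drugs. Read counts were not used here and the absolute depth is unknown. All 10 cardiac muscle markers were present in every library, with Myh6, the adult α-myosin heavy chain, at 5493 to 6211 FPKM with metoprolol and 5764 to 6531 FPKM with propranolol. They go with the label of heart tissue and do not tell the apex from the rest of the ventricle. Transcripts of the Y chromosome were spread unequally over the groups. The mean of 4 Y-linked genes stood at 0.215, 0.228 and 9.50 FPKM in metoprolol 1, 2 and 3, against 8.95, 10.8 and 9.43 FPKM in the propranolol libraries and 9.80, 11.7 and 0.245 FPKM in the controls. Only 1 metoprolol library thus carried them, at a level within the propranolol range, against 3 propranolol and 2 control libraries. By these transcripts the sexes may be unbalanced between the drugs, and sex and drug would then be partly confounded. The liver gene Alb stood at 10.8 FPKM in propranolol 1 and at no more than 0.24 FPKM in the other 5 libraries, and the myeloid gene Lyz2 was highest in metoprolol 3, at 269 FPKM.

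Few genes separated the β-blockers. With metoprolol, 3 genes were higher (0.0250% of those tested) and 4 lower (0.0334%), 7 in all (0.0584%). The test was limma on log2(FPKM + 1) with 1 mean for each of the 7 groups of the study, at a Benjamini-Hochberg adjusted p under 0.05. All differences below are metoprolol minus propranolol on that log2 scale, ± standard error, unless another pair is named. On the same genes, 3855 (32.2%) differed between metoprolol and control and 3233 (27.0%) between propranolol and control, comparisons that share the controls. At an unadjusted p under 0.05 the drugs differed in 1288 genes (10.7%), 679 higher (5.66%) and 609 lower (5.08%) with metoprolol. Among the 11989 genes, the 3 metoprolol libraries lay wholly above the 3 propranolol libraries in 1260 (10.5%) and wholly below them in 972 (8.11%). These shares are the background for every count of a gene list below from this fit, where the unadjusted threshold is p under 0.05. Counts with a library left out or a covariate added are given with their own share of all genes. In bulk tissue fewer cells of a type and less RNA per cell cannot be told apart. In simulated data with the spread of these libraries, the test recovered 22% of changes of 0.25, 78% of changes of 0.5 and 94% of changes of 1 log2. Each size was given to 50 genes there, so more genes passed than the 7 here, which eases the adjusted threshold. The recovered shares are therefore likely too high for this comparison.

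**Figure D1:**
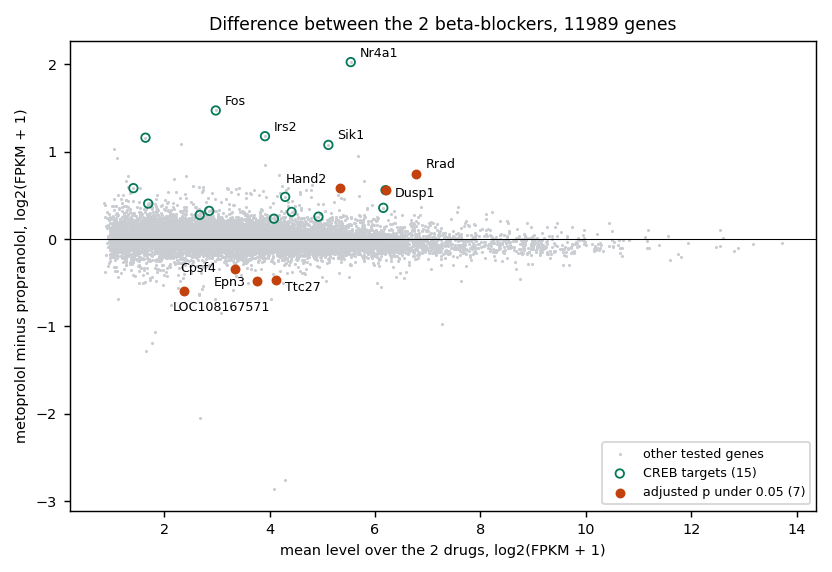
Difference between the drugs (vertical axis, metoprolol minus propranolol, log2(FPKM + 1)) against mean level over both drugs (horizontal axis, log2(FPKM + 1)), 1 point for each of 11989 genes. Filled points are the 7 genes with an adjusted p under 0.05, and open circles are the 15 tested CREB targets, all above 0.

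Hand2, Rrad and Dusp1 were the genes higher with metoprolol. Hand2, a transcription factor that builds and patterns the ventricles, stood at 45.3, 47.1 and 49.0 FPKM with metoprolol and 28.4, 35.2 and 30.0 FPKM with propranolol. The 3 controls, at 33.0, 32.2 and 30.3 FPKM, lay in the range of propranolol, and the groups given the β-blockers did not overlap. The difference was 0.59 ± 0.09 (adjusted p = 0.033). Rrad, a small GTPase that restrains the L-type calcium channel until PKA phosphorylates it, stood at 133, 171 and 108 FPKM with metoprolol, against 91.0, 77.8 and 72.3 FPKM with propranolol. Here the controls were highest, at 164, 185 and 158 FPKM, so that metoprolol overlapped them and propranolol lay wholly below. Metoprolol minus propranolol was 0.75 ± 0.12 for Rrad (adjusted p = 0.033). Against control, Rrad changed by -1.06 with propranolol (adjusted p = 5.0e-05), while metoprolol minus control was -0.32 (adjusted p = 0.058). Dusp1, a phosphatase of the nucleus that switches MAP kinases off and a CREB target, stood at 86.3, 92.0 and 81.2 FPKM with metoprolol, against 55.5, 58.3 and 61.1 FPKM with propranolol. Every library of either drug was above the controls, at 46.2, 38.1 and 43.8 FPKM, and metoprolol was the higher of the drugs (0.56 ± 0.09, adjusted p = 0.033).

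The 4 genes lower with metoprolol were Ttc27, Cpsf4, Epn3 and the unnamed locus LOC108167571. Ttc27, which encodes a tetratricopeptide repeat protein, stood at 13.9, 13.3 and 13.5 FPKM with metoprolol and 18.4, 18.3 and 20.8 FPKM with propranolol. Its controls, at 13.8, 14.7 and 14.8 FPKM, were close to metoprolol (difference between the drugs -0.47 ± 0.08, adjusted p = 0.033). Epn3, an epsin adaptor of endocytosis, had the same order, with 10.1, 11.1 and 9.92 FPKM with metoprolol, 15.6, 14.1 and 14.8 FPKM with propranolol, and 12.0, 9.82 and 10.3 FPKM in controls (-0.48 ± 0.09, adjusted p = 0.049). For both genes propranolol was above control (Ttc27 0.38, adjusted p = 0.0018, and Epn3 0.44, adjusted p = 0.0017), and metoprolol minus control was near 0 (Ttc27 -0.08, adjusted p = 0.42, and Epn3 -0.04, adjusted p = 0.77). Cpsf4, a subunit of the complex that cleaves and polyadenylates messenger RNA, was below control with both drugs. It stood at 7.93, 8.56 and 7.26 FPKM with metoprolol, 10.1, 10.1 and 10.6 FPKM with propranolol, and 12.6, 12.5 and 12.9 FPKM in controls (difference between the drugs -0.34 ± 0.06, adjusted p = 0.034). LOC108167571 stood at 2.98, 2.96 and 3.40 FPKM with metoprolol, against 5.20, 5.86 and 4.59 FPKM with propranolol (-0.59 ± 0.10, adjusted p = 0.036).

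**Figure D2:**
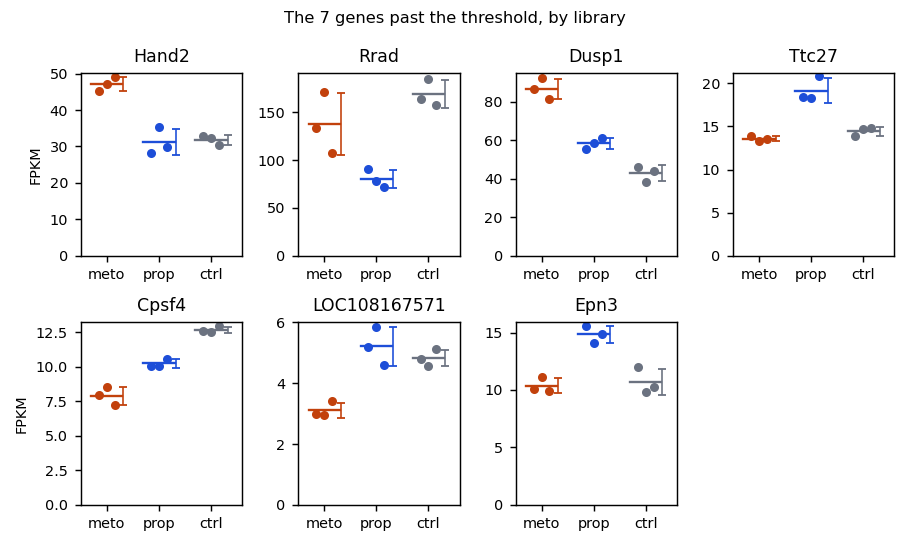
FPKM (vertical axis, from 0) of the 7 genes with an adjusted p under 0.05, by library, in metoprolol (meto), propranolol (prop) and control (ctrl) hearts. Points are libraries, horizontal lines are means and bars are SD of 3 libraries; in each panel the metoprolol and propranolol points do not overlap, and the controls sit near propranolol for Hand2 and near metoprolol for Ttc27 and Epn3.

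Each of these calls depended on single libraries. Leaving out 1 library at a time left 0 to 2 calls: none without metoprolol 1, propranolol 1 or propranolol 3, Rrad alone without metoprolol 3, Hand2 alone without propranolol 2, and Cpsf4 with Ramp1 without metoprolol 2. With the Y-linked level of each library as a covariate 2 genes passed, Hand2 (0.70, adjusted p = 0.0021) and Klf4 (0.48, adjusted p = 0.048), and in the libraries that carried Y-linked transcripts alone none did. In those libraries the differences were 0.64 for Hand2, 0.42 for Rrad, 0.47 for Dusp1, -0.47 for Ttc27, -0.44 for Cpsf4 and -0.54 for Epn3, with a single metoprolol library. Hand2, Rrad, Dusp1, Ttc27, Cpsf4, LOC108167571 and Epn3 each kept their sign under all alternatives in which they were tested.

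Adrb1, the β1 receptor, stood at 15.4, 17.9 and 14.4 FPKM with metoprolol, 13.8, 12.3 and 12.7 FPKM with propranolol, and 13.01, 12.5 and 12.9 FPKM in controls. All 3 metoprolol libraries lay above the propranolol libraries, by a difference of 0.27 ± 0.09 that did not pass (adjusted p = 0.30; 95% interval 0.08 to 0.46). Adrb3 stood at no more than 0.09 FPKM in any metoprolol or propranolol library. Chrm2, the muscarinic receptor that slows the heart, had 14.5, 11.7 and 12.4 FPKM with metoprolol and 11.7, 10.8 and 10.9 FPKM with propranolol (0.19 ± 0.11, adjusted p = 0.53). The α1 receptors Adra1b and Adra1d differed by -0.09 ± 0.09 and 0.12 ± 0.11 (adjusted p = 0.76 for Adra1b and 0.72 for Adra1d).

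Downstream of the receptor, none of the 16 tested G protein and cyclase genes passed, and their median difference was 0.01, close to the 0.01 of all tested genes. Gnas, the stimulatory G protein, stood at 969, 1031 and 958 FPKM with metoprolol, against 1008, 986 and 1002 FPKM with propranolol, so the groups overlapped (-0.02 ± 0.05, adjusted p = 0.92). Adcy5 and Adcy6, the main cyclases of heart muscle, differed by -0.12 ± 0.09 and 0.17 ± 0.07 (adjusted p = 0.66 for Adcy5 and 0.42 for Adcy6). Of the 7 receptor kinases and arrestins, 1 was past the unadjusted threshold. This was Grk5, a kinase that desensitises the receptor, at 12.0, 10.6 and 11.3 FPKM with metoprolol, against 8.89, 9.81 and 7.89 FPKM with propranolol and 10.9, 11.3 and 11.2 FPKM in controls (0.32 ± 0.09, adjusted p = 0.22). Adrbk1, which encodes GRK2, was level (0.01 ± 0.05, adjusted p = 0.97, 95% interval -0.10 to 0.11), and the arrestins Arrb1 and Arrb2 differed by 0.12 ± 0.08 and 0.07 ± 0.10. Among 21 PKA subunits and anchors 0 passed and the median was 0.01. The catalytic subunit Prkaca differed by -0.07 ± 0.05, the regulatory subunit Prkar1a by 0.15 ± 0.06 and the anchor Akap7 by 0.19 ± 0.06 (adjusted p = 0.66, 0.42 and 0.26 in that order).

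None of the genes that brake cAMP signals passed the test. Of 16 tested phosphodiesterases, 7 were past the unadjusted threshold upward and 0 downward, with a median of 0.16. Pde4b and Pde4d, 2 of these 7, are also on the list of CREB targets. Without propranolol 3 the count was 4, and the upward share of all genes was 3.25%, against 5.66% with all libraries. Pde4b, a main cAMP phosphodiesterase, stood at 23.1, 22.8 and 21.9 FPKM with metoprolol, 16.8, 19.8 and 17.6 FPKM with propranolol, and 14.7, 13.2 and 13.95 FPKM in controls (0.31 ± 0.08, adjusted p = 0.21). Pde3a, the target of milrinone, stood at 12.9, 10.97 and 12.6 FPKM with metoprolol, against 10.8, 9.11 and 7.71 FPKM with propranolol (0.37 ± 0.10, adjusted p = 0.22). Pde4d differed by 0.28 ± 0.08 (adjusted p = 0.27). In the RGS list 3 of 9 tested members were past the unadjusted threshold, all upward: Rgs2, Rgs16 and Rgs5. Rgs2 stood at 22.1, 24.4 and 20.5 FPKM with metoprolol, 15.6, 17.8 and 15.8 FPKM with propranolol, and 12.0, 11.2 and 10.4 FPKM in controls, an order of 3 groups without overlap. The drugs differed in Rgs2 by 0.42 ± 0.09 (adjusted p = 0.10), in Rgs16 by 0.42 ± 0.12 (adjusted p = 0.24) and in Rgs5 by 0.14 ± 0.06 (adjusted p = 0.44). The order of Pde4b and Rgs2, with controls lowest, was not that of their lists. Against control the phosphodiesterase median was -0.02 with metoprolol and -0.13 with propranolol. For the RGS list these medians were -0.09 and -0.14.

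PKA substrates of the contractile machinery did not move together. Of 11 tested, Rrad alone passed, and the median was -0.10. Phospholamban (Pln), which holds the calcium pump back until it is phosphorylated, stood at 1475, 1512 and 1502 FPKM with metoprolol, against 1469, 1358 and 1371 FPKM with propranolol (0.10 ± 0.07, adjusted p = 0.66). Ryr2, the calcium release channel, had 69.6, 52.4 and 68.9 FPKM with metoprolol, 52.3, 51.5 and 45.3 FPKM with propranolol, and 37.8, 39.9 and 36.3 FPKM in controls (0.34 ± 0.12, adjusted p = 0.34). Cacna1c, the pore of the L-type calcium channel, differed by 0.20 ± 0.10 (adjusted p = 0.47).

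**Figure D3:**
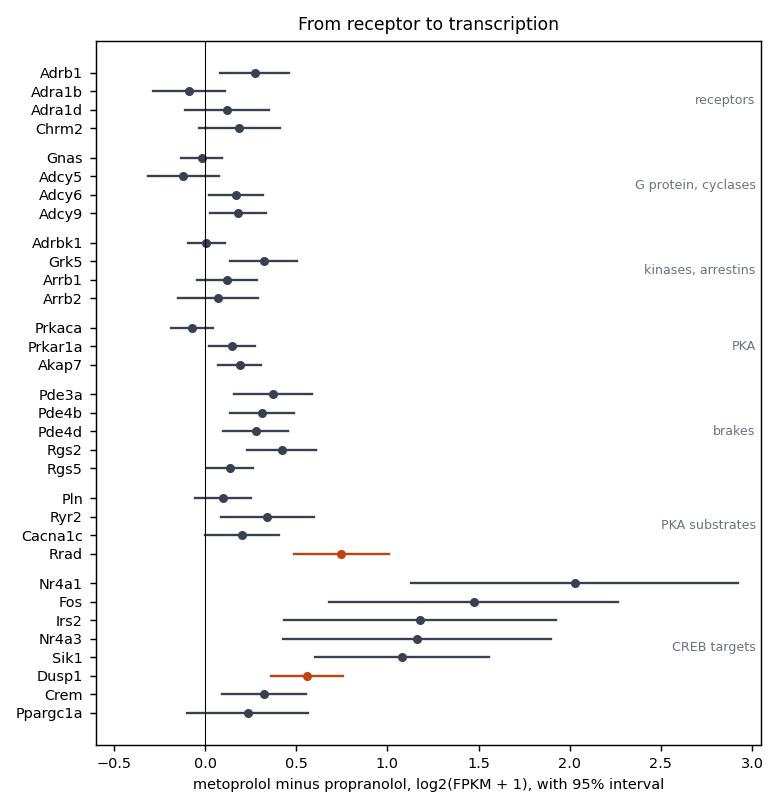
Difference between the drugs (horizontal axis, metoprolol minus propranolol, log2(FPKM + 1)) with its 95% interval for genes of the pathway, from receptors at the top to CREB targets at the bottom. Rrad and Dusp1, drawn in orange, are the 2 genes shown with an adjusted p under 0.05; intervals of receptors, G protein and PKA genes lie mostly within 0.5 of 0, and those of Nr4a1, Fos, Irs2 and Nr4a3 are the widest.

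CREB targets had the highest median of the 48 gene lists with at least 5 tested members, 11 of them lists of cell types or tissues. Of 18 listed genes 15 were tested, and all 15 had a positive difference, with a median of 0.48 against 0.01 for all tested genes. Of the 15, 12 were past the unadjusted threshold (5.66% of all genes in that direction) and 14 had metoprolol libraries wholly above the propranolol libraries (10.5% of all genes). Among them Dusp1 alone passed the adjusted threshold. Fosb, Areg and Bdnf were below the filter. The list was chosen with earlier results of these data known, and no test was made of it.

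Nr4a1, an immediate early nuclear receptor, carried the largest difference of the list. It stood at 45.9, 114 and 62.8 FPKM with metoprolol, 14.7, 21.6 and 13.4 FPKM with propranolol, and 7.88, 6.73 and 8.40 FPKM in controls. The lowest metoprolol library was above the highest propranolol library, and the spread within metoprolol was wide (74.3 ± 35.6 FPKM, against 16.6 ± 4.41 FPKM with propranolol; SD, n = 3 each). The difference was 2.03 ± 0.43 (adjusted p = 0.090; 95% interval 1.13 to 2.92). Sik1, a kinase that CREB induces and that in turn restrains CREB coactivators, had 38.2, 54.0 and 45.4 FPKM with metoprolol, 17.2, 27.5 and 19.4 FPKM with propranolol, and 8.27, 8.11 and 8.89 FPKM in controls (1.08 ± 0.23, adjusted p = 0.090). The insulin receptor adaptor Irs2 had 13.7, 26.1 and 19.9 FPKM with metoprolol, 7.51, 10.5 and 6.36 FPKM with propranolol, and 1.62, 2.01 and 2.23 FPKM in controls (1.18 ± 0.36, adjusted p = 0.26).

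For Nr4a1, Sik1 and Irs2 the 3 groups followed the same order without overlap, metoprolol highest and control lowest. Fos, a subunit of the AP-1 factor, did not follow it, with 7.01, 14.96 and 10.02 FPKM with metoprolol, 2.78, 3.71 and 2.70 FPKM with propranolol, and 1.91, 4.33 and 5.29 FPKM in controls (difference between the drugs 1.47 ± 0.38, adjusted p = 0.20). Nr4a3 stood at 1.82, 4.19 and 4.00 FPKM with metoprolol, against 0.64, 1.43 and 0.64 FPKM with propranolol (1.16 ± 0.35, adjusted p = 0.26). Crem, a CREB family member whose short forms repress, had controls level with metoprolol. Its metoprolol libraries stood at 6.74, 7.07 and 7.23 FPKM, its propranolol libraries at 5.05, 5.55 and 5.62 FPKM, and its controls at 6.81, 6.42 and 6.32 FPKM (0.32 ± 0.11, adjusted p = 0.31). Per1 of the clock and Ppargc1a, a coactivator of mitochondrial genes, differed by 0.26 ± 0.19 and 0.23 ± 0.16 (adjusted p = 0.65 for Per1 and 0.62 for Ppargc1a), and Per1 was the 1 member whose drug libraries overlapped.

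**Figure D4:**
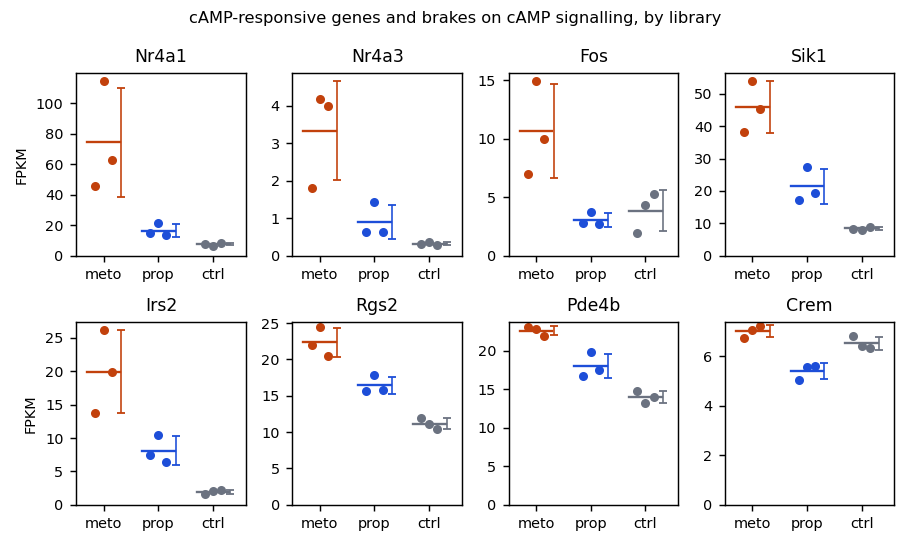
FPKM (vertical axis, from 0) of Rgs2 and 7 CREB targets, Pde4b and Crem among them, by library in metoprolol (meto), propranolol (prop) and control (ctrl) hearts. Points are libraries, horizontal lines means and bars SD of 3 libraries; metoprolol lies above propranolol without overlap in every panel, and the middle point of Nr4a1 with metoprolol is the 114 FPKM of metoprolol 2.

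A single library was often the peak. Metoprolol 2 was the highest of the 6 in 11 of the 15 CREB targets, and propranolol 2 the highest of its own 3 in 9. Without metoprolol 2 the median of the list was 0.38 and 11 members were past the unadjusted threshold (5.62% of all genes were, upward). In the libraries with Y-linked transcripts alone, with a single metoprolol library, the median was 0.46. With the Y-linked covariate the median was 0.53, with 14 past the unadjusted threshold (3.07% of all genes were, upward). All tested members kept a positive difference under every alternative. Set side by side, 10 of the 15 were higher with metoprolol than in controls (9.85% of all genes were), with a median of 0.66. With propranolol 5 were higher (7.21%) and Crebrf was lower, with a median of 0.35. In the other anti-arrhythmic groups Nr4a1 averaged 70.0 ± 18.8 FPKM with amiodarone, 129 ± 43.9 FPKM with lidocaine and 64.5 ± 59.1 FPKM with ivabradine, and it averaged 16.3 ± 2.60 FPKM with isoproterenol (SD, n = 3 each). The 16.6 FPKM of propranolol was thus near the value with isoproterenol, and the 74.3 FPKM of metoprolol was in the range of the other 3 drugs.

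Immediate early genes, which overlap the CREB list in Fos, Fosb and Dusp1, were counted next. Of 19 tested, 9 were past the unadjusted threshold upward and 0 downward, 1 (Dusp1) passed, and the median was 0.35. Klf4, a zinc finger factor of vessel wall and stress responses, came next after the called genes. It stood at 33.6, 34.7 and 39.4 FPKM with metoprolol, 26.7, 27.5 and 26.2 FPKM with propranolol, and 24.1, 21.96 and 23 FPKM in controls (0.41 ± 0.07, adjusted p = 0.052). Fosl2, Btg2, Egr1 and Junb differed by 0.74 ± 0.25, 0.57 ± 0.16, 0.52 ± 0.22 and 0.48 ± 0.18 (adjusted p = 0.31, 0.24, 0.42 and 0.36 in that order). Ier3 and Ier5, also quick responders, had differences of -0.22 ± 0.12 and -0.20 ± 0.12 (adjusted p = 0.51 for Ier3 and 0.56 for Ier5).

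By the naming rule, the 10 genes of smallest p in each direction were taken, and beyond the called ones those given are values that did not pass. On the side of metoprolol were also Sik1, given above, Pnrc1, a coactivator of nuclear receptors, the kinase Pim1, Foxo3, a transcription factor held back by insulin signalling, and the interferon regulator Irf2, with an adjusted p of 0.090 each. The differences of Pnrc1, Pim1, Foxo3 and Irf2 were 0.46 ± 0.09, 0.56 ± 0.12, 0.31 ± 0.06 and 0.34 ± 0.07 in that order. Pnrc1 stood at 44.8, 54.3 and 46.6 FPKM with metoprolol, 34.8, 35.0 and 35.1 FPKM with propranolol, and 49.5, 43.1 and 45.2 FPKM in controls, so that metoprolol overlapped the controls and propranolol lay wholly below them. On the side of propranolol were Dhrs7c, a dehydrogenase of the sarcoplasmic reticulum (-0.35 ± 0.07, adjusted p = 0.082), Ramp1, a subunit of the receptor for the vasodilator peptide CGRP (-0.47 ± 0.09, adjusted p = 0.088), and Gadd45a, a p53 target of growth arrest (-0.58 ± 0.12, adjusted p = 0.090). Hbegf, a ligand of the EGF receptor, had -0.50 ± 0.11 (adjusted p = 0.11). Elp6 and Dph2, of the modification of transfer RNA and of elongation factor EF2, had -0.39 ± 0.09 and -0.34 ± 0.08 (adjusted p = 0.15 each). Xlr, at 0.42, 0.61 and 0.90 FPKM with metoprolol, against 1.56, 1.08 and 2.42 FPKM with propranolol, belongs to a family of near-identical copies, so its value is uncertain.

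Genes of fuel use gave small differences. Of 27 tested genes of fatty acid uptake and oxidation 0 passed, 7 were past the unadjusted threshold upward and 0 downward, and the median was 0.07. Cd36, the fatty acid transporter, stood at 324, 308 and 352 FPKM with metoprolol, 261, 271 and 257 FPKM with propranolol, and 286, 263 and 295 FPKM in controls (0.32 ± 0.07, adjusted p = 0.090). Hadha and Hadhb, whose products form the mitochondrial trifunctional protein, differed by 0.14 ± 0.05 (adjusted p = 0.35 for Hadha and 0.36 for Hadhb). Among 37 oxidative phosphorylation genes 0 were past the unadjusted threshold in either direction. Their median of -0.07 was -0.0063 with the Y-linked covariate, with 18 genes positive and 19 negative, and -0.025 without propranolol 3, -0.031 without metoprolol 3 and -0.019 after length and GC correction. In glycolysis 1 of 21 was past it upward and 4 downward: Pfkfb2, which makes the activator of glycolysis, at 0.28 ± 0.08 (adjusted p = 0.25), and Pkm, Eno1, Eno3 and Pgam2 between -0.14 and -0.17. In the FoxO and muscle atrophy list 7 of 15 were past it upward and 0 downward, Irs2 of the CREB list among them, with Foxo3 and Fbxo32, a ubiquitin ligase of muscle wasting, the smallest in p. Fbxo32 stood at 14.8, 14.6 and 13.8 FPKM with metoprolol, 11.01, 9 and 8.44 FPKM with propranolol, and 10.1, 10.6 and 8.74 FPKM in controls (0.56 ± 0.12, adjusted p = 0.097). In the hypoxia list 6 of 14 were past it upward and 0 downward, led by the mitophagy receptor Bnip3, which is on the FoxO list as well (0.33 ± 0.08, adjusted p = 0.17).

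Cardiac structure and conduction differed little. In the adult sarcomere list 0 of 22 passed and the median was -0.04. Among 17 calcium handling genes 0 passed. Jph2, which holds the calcium channel and release channel membranes together, stood at 151, 142 and 147 FPKM with metoprolol, 167, 171 and 175 FPKM with propranolol, and 111, 101 and 108 FPKM in controls (difference between the drugs -0.22 ± 0.06, adjusted p = 0.22). Casq1, a calcium-binding protein of skeletal muscle, differed by -0.68 ± 0.20 (adjusted p = 0.25). Of 23 ion channels 0 passed. Gja1, the gap junction protein connexin 43, stood at 202, 217 and 207 FPKM with metoprolol, against 180.1, 164 and 159 FPKM with propranolol (0.31 ± 0.07, adjusted p = 0.13). The T-type calcium channel Cacna1g differed by -0.30 ± 0.12 (adjusted p = 0.41). Of 21 cardiac transcription factors Hand2 alone passed. In the YAP list 0 of 16 passed, and Ctgf, a matrix-bound growth signal, had 79.7, 92.1 and 141 FPKM with metoprolol, 159, 237 and 208 FPKM with propranolol, and 57.9, 42.4 and 64.1 FPKM in controls. Ctgf was thus above control in every library of either drug and highest with propranolol (difference between the drugs -0.97 ± 0.23, adjusted p = 0.15).

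Proliferation genes gave no difference between the drugs that passed. Of 35 mitosis genes 0 were past the unadjusted threshold in either direction, and the median was -0.03, ranging from -0.18 to 0.05 over the alternatives, with the positive value without metoprolol 3. Mki67, a marker of cycling cells, stood at 6.80, 8.30 and 7.03 FPKM with metoprolol, against 7.80, 7.90 and 6.78 FPKM with propranolol (-0.02 ± 0.14, adjusted p = 0.96). Of 33 DNA replication genes 4 were past it downward and 0 upward (median -0.11, with a range of -0.23 to -0.065 over the alternatives): Chaf1b, Gins2, Pold1 and Rfc3. Cytosolic ribosomal protein genes, 29 tested, were all on the negative side, by a median of -0.11 and at most 0.26 in size. Of these, 5 were past the unadjusted threshold downward, Rpsa foremost, at 358, 378 and 361 FPKM with metoprolol, 397, 448 and 471 FPKM with propranolol, and 433, 485 and 408 FPKM in controls (-0.26 ± 0.08, adjusted p = 0.27). Over the alternatives 25 to 29 of the 29 were negative. The count of 5, with 5.08% of all genes downward, was 1 without metoprolol 1 (3.61%), metoprolol 3 (3.25%) or propranolol 3 (2.97%). It was 2 without propranolol 2 (4.05%), 7 without metoprolol 2 (5.74%) and 8 without propranolol 1 (5.28%). With the Y-linked covariate it was 1 (3.55%), with a median of -0.081. The median was -0.16 in libraries with Y-linked transcripts only, -0.067 without propranolol 3 and -0.064 after length and GC correction.

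**Figure D5:**
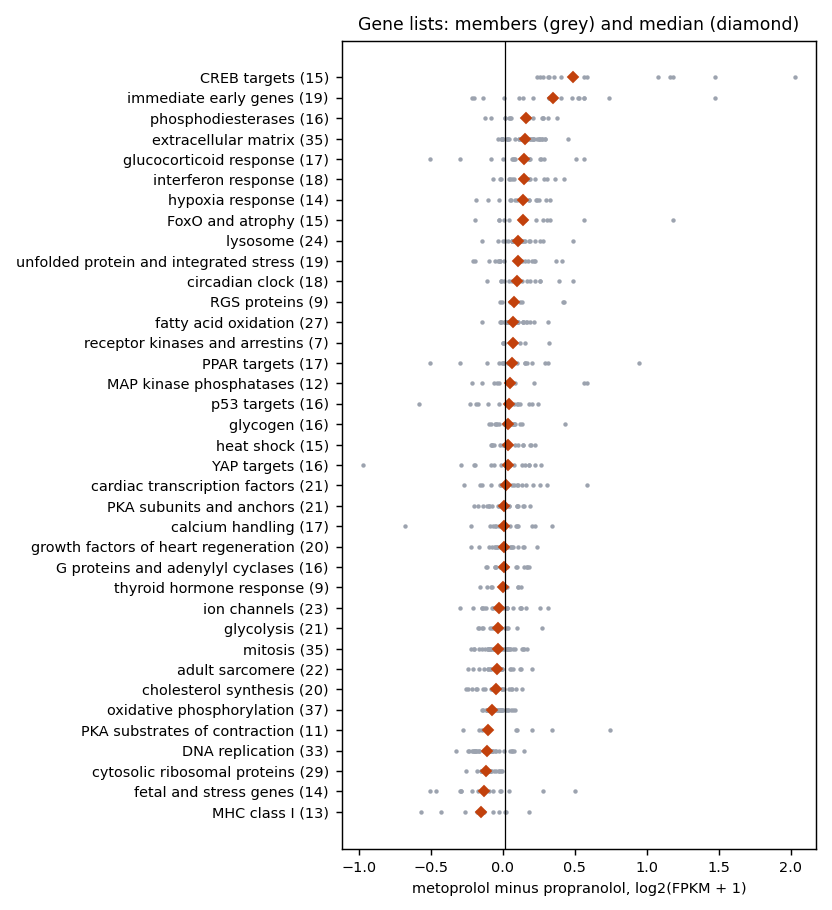
Difference between the drugs (horizontal axis, metoprolol minus propranolol, log2(FPKM + 1)) for the tested members of the 37 gene lists with at least 5 tested members that are not lists of a cell type or tissue, with the number tested in brackets. Grey points are genes, orange diamonds are list medians and the vertical line is the median of all tested genes (0.01); CREB targets (0.48) and immediate early genes (0.35) have the highest medians and MHC class I genes (-0.15) the lowest.

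No listed marker of a cell type, heart muscle included, passed the test between the drugs. All 10 fibroblast markers had a positive difference. Their median of 0.18 ranged from 0.046 to 0.36 over the alternatives, and their summed level was 2008 to 2817 FPKM with metoprolol, against 1969 to 2216 FPKM with propranolol. Endothelial markers numbered 13, with 5 past the unadjusted threshold upward, 0 downward and a median of 0.09, which ranged from 0.015 to 0.11; Flt1, a receptor of VEGF, differed by 0.25 ± 0.10 (adjusted p = 0.39). Macrophage markers, 13 of 15 tested, summed to 196 to 511 FPKM with metoprolol, against 218 to 290 FPKM with propranolol, and the upper end of metoprolol was the third library. Neutrophil markers, 6 of 11 tested, summed to 20.3 to 26.1 FPKM with metoprolol, against 14.99 to 22.2 FPKM with propranolol. Liver markers, 1 of 14 tested, summed to 2.76 to 5.01 FPKM with metoprolol and 3.13 to 35.4 FPKM with propranolol, with the high value in propranolol 1. Atrial markers, 6 of 10 tested, summed to 541 to 813 FPKM with metoprolol, against 747 to 1108 FPKM with propranolol, nearly all of it Nppa, and Bmp10 was at 0.13 FPKM in propranolol 2 and listed at 0 in the other 5. The part of these cells in the differences above was not tested, other than by leaving out single libraries.

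Some X-linked genes also differed between libraries with and without Y-linked transcripts. Kdm5c, which escapes X inactivation, stood at 22.9, 21.5 and 14.8 FPKM with metoprolol, against 13.4, 13.99 and 12.99 FPKM with propranolol and 13.6, 12.6 and 20.3 FPKM in controls. Libraries without Y-linked transcripts were thus the high ones in Kdm5c. Eif2s3x followed the same split, with 53.8, 52.5 and 34.5 FPKM with metoprolol, against 32.9, 33.7 and 32.2 FPKM with propranolol. With the Y-linked covariate 794 genes were past the unadjusted threshold, against 1288 without it. In Hand2 the third metoprolol library, the one with Y-linked transcripts, was the highest of the 6, and in Rrad it was the lowest of its group.

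Where no difference passed, the interval says how large it could be. The 95% interval of the difference lay within 0.5 log2 of 0 for 93.0% of tested genes and within 1 log2 for 98.9%, and its median reach was 0.17 to either side. A difference of at least 1 log2 in size was seen in 13 genes, 7 higher and 6 lower with metoprolol, and none of them passed the adjusted threshold. Nr4a1, Fos, Irs2, Nr4a3 and Sik1 were 5 of the 7 higher ones, with Entpd4 and Slc15a2. The lower ones were the Y-linked Eif2s3y, Ddx3y, Kdm5d and Uty, with Zbed5 and the MHC gene H2-Q8. Over the 10 pairs of the 5 anti-arrhythmic drugs, the β-blockers gave 7 calls, and the other 9 pairs gave 0 to 128 with a median of 11. Metoprolol against amiodarone and against lidocaine gave 0 calls each with limma (498 and 713 genes at an unadjusted p under 0.05). Against ivabradine it gave 11. Propranolol gave 10 against amiodarone, 81 against lidocaine and 58 against ivabradine. Amiodarone gave 57 against lidocaine and 128 against ivabradine, and lidocaine against ivabradine gave 0 (915 genes at an unadjusted p under 0.05). Pairs share groups, and the counts are a description.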

How the data were processed

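RNA of the heart apex was sequenced on a BGISEQ-500 after oligo dT selection or rRNA depletion, which of them the labels do not say. The authors deposited 1 table of FPKM values for 18762 genes and 21 libraries, and all 21 value columns were matched to the labels. Per the submitters' processing notes, the build was mm9 and the tools were HISAT and Bowtie2 (2.2.5); the counter, the annotation release and the use of strand are not given in the sources used here. Reads of overlapping genes therefore cannot be told apart, and without counts the depth is unknown and no counting interval is given.

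Values were taken as log2(FPKM + 1). A gene was kept where 3 or more of the 6 metoprolol and propranolol libraries reached 1 FPKM. limma 3.58.1 in R 4.3.3 was fitted to all 21 libraries with 1 mean per group, 14 residual degrees of freedom and a mean-variance trend; tests are two-sided, with Benjamini-Hochberg adjustment over 11989 genes at 0.05. A fold on this scale understates the change of low genes. The test was checked on simulated data: of 50 genes changed by each size it recovered the shares given above, with 6 false calls among 11789 unchanged genes. Gene lists, 60 in all with the cell type markers, were described by counts and medians without a test. The members, the lists and the alternatives were chosen with earlier results of these data known. Fewer than 5 genes were called in each direction, so the rule named the 10 of smallest p each way (libraries apart, no bare locus name), with fixed pathway genes and the 2 members of smallest p of each list. Other genes in the text, LOC108167571 included, were chosen after their values were seen. Some genes that the rule named are not reported here. Alternatives changed the pseudocount (0.1), filter, scaling, libraries fitted, variance model and title-number block. Others added a covariate of 4 Y-linked genes, kept only libraries with those transcripts, corrected each library by splines for GC content and transcript length (96.7% of genes matched), or left out each library in turn. Promoters came from RefSeq on GRCm38.p6, 250 bases before to 50 after each start, searched on both strands for TGACGTCA and TGACG.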

Additional observations from a re-analysis of the deposited data

How the results depend on the processing

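The count of 7 genes stayed at 6 to 8 with a pseudocount of 0.1, a filter at 5 FPKM, a filter over all 21 libraries, rescaling, no variance trend, robust moderation, and the title number as a replicate block. It was 0 with no filter (limma, 1584 genes at an unadjusted p under 0.05, 17921 tested), 2 in a fit of the 6 libraries alone, Dusp1 among them, 2 with the Y-linked covariate, 0 in libraries with Y-linked transcripts only (limma, 1078 at an unadjusted p under 0.05, 1 metoprolol library assumed to vary like the others) and 4 after length and GC correction (11875 genes). Leaving out 1 library gave 0 to 2. The share of genes whose 95% interval lay within 0.5 log2 of 0 was 85.8% with a pseudocount of 0.1, 95.6% with a filter at 5 FPKM, 92.1% with a filter over all 21 libraries, 94.6% in the 6 libraries alone, 91.7% with the Y-linked covariate, 78.4% in libraries with Y-linked transcripts only, 93.7% after length and GC correction, and 89.7% to 91.2% without 1 library. For the other 9 pairs of drugs the median of 11 calls became 6 with no filter, 3 with Y-linked libraries only, 22 after length and GC correction, and 5 to 11 without 1 library; it was not run in the 6 libraries alone, which hold no other drug. The cause of these shifts was not tested.

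Deviations of libraries with the same title number correlated at 0.09, -0.10 and 0.05 over all tested genes, so no pairing showed there. The labels state no pairing, and such correlations cannot exclude one. Under the replicate block 7 genes passed, 5 higher and 2 lower; 5 were among the 7 above, with Sgk1 and Klf4 added and Cpsf4 and Epn3 lost. Differences near 0 changed sign: Adrbk1 was -0.0030 with rescaling and -0.037 to 0.044 without 1 library, Arrb2 -0.0082 to 0.15 without 1 library, Gnas 0.0013 after length and GC correction and -0.051 to 0.0015 without 1 library, and Mki67 -0.099 to 0.028 without 1 library. With the Y-linked covariate Ddx3y was 0.059 and Kdm5d 0.064. In libraries with Y-linked transcripts only Ddx3y was 0.12, Kdm5d 0.20, Ier3 0.0080 and Ier5 0.047. With no counts, what depth limits cannot be given; genes under 1 FPKM, Adrb3 among them, were not tested in the main analysis.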

Other observations

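Genes that the deposited table annotates to rRNA processing lay mostly on the side of propranolol. Of 104 tested, 18 were past the unadjusted threshold of p under 0.05 downward with metoprolol and 1 upward, 86 had a negative difference, and the median was -0.08. Of these 18, 7 were ribosomal protein genes, 3 of which are on the list of cytosolic ribosomal proteins described above, so the groups are not separate observations. Of 105 genes annotated to translation, 16 were past it downward and 3 upward, with a median of -0.06. Of the 16, 5 were genes of cytosolic ribosomal proteins. Mrps5, Mrpl13, Mrpl49, Mrpl9, Mrpl4 and Mrpl10, of the mitochondrial ribosome, were also among the 16, as were members of the Slc25a family of mitochondrial carriers. Over all tested genes these shares were 5.08% downward and 5.66% upward, and none of the genes of either term had an adjusted p under 0.05 (limma). Of 37 genes annotated to the response to cAMP, 9 were past it upward and 1 downward, with a median of 0.06. Among the 9 were Dusp1, which passed the adjusted threshold, and Fos, Crem, Fosl2, Junb and Pde3a of the lists above. This count is therefore not a separate observation either. Alternatives were not run for these annotated groups.

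In the list of the unfolded protein response, 4 of 19 tested members were past the unadjusted threshold upward and 2 downward. Hspa5, the main chaperone of the endoplasmic reticulum, stood at 259, 172 and 214 FPKM with metoprolol, 157, 167 and 168 FPKM with propranolol, and 163, 159 and 159 FPKM in controls (0.37 ± 0.16, adjusted p = 0.44). Its cochaperone Dnajb9 stood at 21.5, 13.9 and 19.3 FPKM with metoprolol, against 12.9, 13.7 and 13.1 FPKM with propranolol (0.41 ± 0.14, adjusted p = 0.30). In both genes metoprolol 2 was the lowest library of its group, while it was the highest of the 6 in most CREB targets. Angptl4, a secreted inhibitor of lipoprotein lipase, stood at 50.6, 62.2 and 46.0 FPKM with metoprolol, against 83.0, 79.4 and 64.0 FPKM with propranolol (-0.51 ± 0.14, adjusted p = 0.23). Sgk1, a kinase induced by glucocorticoids, stood at 46.8, 39.5 and 49.7 FPKM with metoprolol, against 28.0, 33.7 and 32.8 FPKM with propranolol (0.51 ± 0.12, adjusted p = 0.13). Ppp1r3c, which targets a phosphatase to glycogen, had a difference of 0.43 ± 0.10 (adjusted p = 0.15). Of 18 tested interferon genes 1 was past the unadjusted threshold upward and 0 downward. Their libraries lay apart between the drugs in 8, all higher with metoprolol (10.5% of all tested genes), and the antiviral gene Ifit3 stood at 1.89, 2.30 and 2.63 FPKM with metoprolol, 1.34, 1.62 and 1.35 FPKM with propranolol, and 4.47, 3.76 and 3.51 FPKM in controls. Zbed5 spread widely within each drug, at 3.57, 7.95 and 0.51 FPKM with metoprolol and 60.4, 9.29 and 29.3 FPKM with propranolol.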
